A study of Homo sapiens with 6 samples.

Results

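The 40 genes described here belong to glycolysis and to the hypoxia response: the enzymes that turn glucose into lactate, the glucose and lactate transporters, the hypoxia-inducible factors (HIFs) with the proteins that sense oxygen for them, and a panel of genes that HIFs are known to switch on. They were chosen by name and role, with earlier results of these data known. A probe was assigned to a gene through the transcript accession it carries on the array, and for a gene with several probes the one with the highest mean log2 signal over the 6 arrays was used. Of the 40 genes, 39 had a probe, and 37 of these were bright enough to be tested. ALDOA had no probe named through the RefSeq table used here. The probes of CA9 and CA12 were well above background on 2 arrays and on 1 array of the 6, below the minimum of 3. The 39 genes stand among 20503 genes named on the array.

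Glycolysis splits glucose into pyruvate with a small yield of ATP, and lactate dehydrogenase turns the pyruvate into lactate, which leaves the cell through monocarboxylate transporters. Many tumours run this route even when oxygen is present. When oxygen is plentiful, prolyl hydroxylases of the EGLN family mark the HIF alpha subunits, and the VHL protein directs the marked subunits to destruction. When oxygen is scarce the alpha subunits persist, pair with ARNT and bind short DNA motifs near genes of glucose uptake, glycolysis, blood vessel growth and pH control. This control acts largely on the stability of the HIF proteins, which RNA arrays do not measure.

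The RNA came from A673, an Ewing sarcoma cell line, and was labelled in 1 colour (Cy3) on 6 Agilent arrays. All 6 samples were A673/TR cells, which express the tetracycline repressor (TR) so that an inserted cDNA can be switched on by doxycycline. The 3 control samples were A673/TR/empty, whose vector holds no LOX cDNA. The other 3 were A673/TR/LOX-PP, which carry the cDNA of the propeptide of lysyl oxidase (LOX), an enzyme that crosslinks collagen, and were stimulated with doxycycline for 72 h. The comparison asks which genes differ when the propeptide is induced. The labels give doxycycline at 1 µM and repeat that treatment for every sample, although the source name gives it to the LOX-PP samples alone, so whether the empty cells received the drug is not settled. The cells were stable lines selected after lentiviral infection. Which clone was hybridised is not given in the sources used here, so the construct and a clone cannot be told apart. According to the methods the RNA came from 3 separate experiments.

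The LOX probe served as a check of the labels. It was at -0.09, 0.36 and 0.11 on the empty arrays, against -0.12, -0.68 and -1.29 on the LOX-PP arrays, in log2 units over the 75th percentile of each array. Every array labelled LOX-PP thus lay below every empty array, and the difference did not pass (adjusted p = 0.217). Where this probe lies along the LOX transcript is not given in the sources used here, so it may fall outside the propeptide cDNA, and the arrays are called by their labels throughout. All 10 Ewing sarcoma markers, among them CD99, NR0B1 and NKX2-2, were well above background on all 6 arrays, and none of the 10 passed the test. Of 8 fibroblast and mesenchymal markers, 6 were well above background on all arrays and 2 passed, COL1A2 and LUM, both with lower levels in LOX-PP cells. LUM was well above background on 2 empty arrays and 1 LOX-PP array. COL3A1 was lower and COL1A1 higher on every LOX-PP array than on every empty array, and neither passed (adjusted p = 0.0793 and 0.175). The summed level of the 8 markers was 6.38 to 6.41 on the empty arrays and 5.52 to 6.15 on the LOX-PP arrays. The 4 leukocyte markers summed to -0.90 to 0.14 over all arrays and none passed. The part of these lists in the results below was not tested. LOX-PP replicate 1 came from slide 2, all 5 others from slide 1. Results that change without it are given below.

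Levels are given as log2 of the background-corrected signal less the 75th percentile of the same array, for replicates 1, 2 and 3 in that order. A difference is the mean of the 3 LOX-PP arrays minus the mean of the 3 empty arrays, less 0.13, which is the median of that quantity over all 32647 tested probes. The levels on single arrays are not shifted in this way. The shift was subtracted because it depended on the scaling and ran from -0.03 to 0.30 under the other settings tried. The p-values test the difference before this subtraction and are adjusted over all 32647 tested probes.

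One of the 37 tested genes passed the threshold of an adjusted p under 0.05. It was EPAS1, which encodes HIF-2 alpha, and its level was higher in LOX-PP cells. None of the 37 was called lower. Over all tested probes 5.66% were called, 3.31% as higher and 2.36% as lower in LOX-PP cells, against 2.70% of the glycolysis and hypoxia genes. That share is 1 gene, too few to be read as a difference. The groups did not overlap in 7 of the 37 genes (18.9%), against 29.5% of all tested probes. These shares varied with signal. Of the 1254 tested probes with a mean level of at least 5, 0.08% were called and 21.1% did not overlap. Of the 37 genes 10 were that bright. An unadjusted p under 0.05 came together with groups that did not overlap in 5 of the 37 genes, EPAS1, ADM, ENO2, ALDOC and SLC2A3, and in 20.1% of all tested probes. The median difference of the 37 genes was -0.07, with 26 genes below and 11 above the median of all probes. With probes well above background on all arrays 18 lay below and 17 above. Without LOX-PP replicate 2 these numbers were 17 and 20, and without empty replicate 2 they were 18 and 19. No common direction is therefore given, and differences of all probes also varied with signal, as described below. The median size of a difference, sign aside, was 0.33 for these genes and 0.38 for all tested probes. In bulk RNA of this kind fewer cells with a transcript and less transcript in each cell cannot be told apart.

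**Figure D1:**
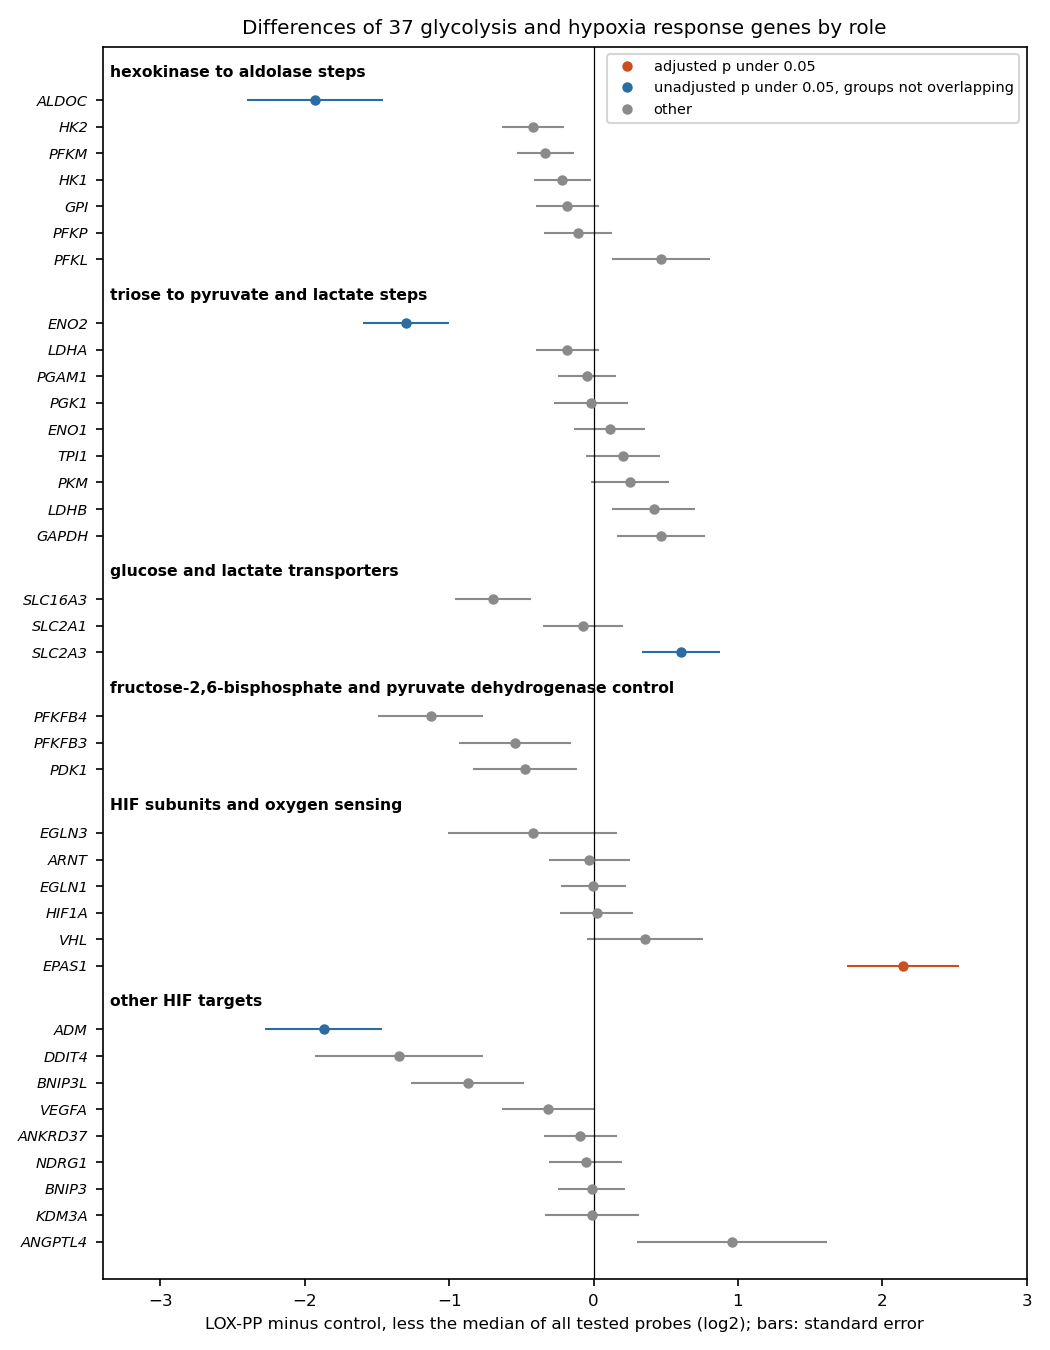
Difference between the LOX-PP and the empty arrays (log2, less the median of all tested probes) for each of the 37 tested genes, in 6 role groups, with bars for the standard error of the limma fit on 3 arrays in each group. EPAS1 lies at 2.14 and is the 1 gene past the adjusted threshold, and ADM, ALDOC and ENO2 lie at -1.87, -1.93 and -1.30.

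EPAS1 was the largest difference among the HIF subunits and oxygen sensors, and among all 37 genes. Its protein, HIF-2 alpha, is an oxygen-regulated transcription factor that shares the partner ARNT with HIF-1 alpha. The probe, on a transcript of a gene on chromosome 2, read -3.63, -3.05 and -4.03 on the empty arrays, against -1.22, -0.76 and -1.93 on the LOX-PP arrays. Every LOX-PP array was above every empty array, with a gap of 1.13 between the groups. The probe was well above background on 2 of the 3 empty arrays and on all 3 LOX-PP arrays. The difference was 2.14 (SE 0.39), a 4.42-fold higher level on the LOX-PP arrays, with an adjusted p of 0.0221.

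The promoter of EPAS1 is shown because EPAS1 alone among the 37 genes passed the threshold and its window holds the core of the hypoxia response element, the motif bound by HIFs. The window, from RefSeq on GRCh38.p14, covers chr2:46297157-46297456 on the + strand, that is 250 bases before to 50 bases from the transcription start. Capitals mark the only match to ACGTG or GCGTG on either strand, and it begins 117 bases before the start.
EPAS1: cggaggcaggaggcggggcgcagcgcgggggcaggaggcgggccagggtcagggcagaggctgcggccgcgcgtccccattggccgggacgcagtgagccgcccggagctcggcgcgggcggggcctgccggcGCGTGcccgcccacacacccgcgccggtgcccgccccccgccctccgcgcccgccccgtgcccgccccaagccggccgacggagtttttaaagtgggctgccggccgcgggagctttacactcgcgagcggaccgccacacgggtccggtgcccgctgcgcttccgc
The window is 80% G and C, and the GCGTG match stands on the strand of the gene. A match is a description of these letters and not evidence of a bound site.

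The call of EPAS1 depended on the arrays and on the settings. It held without LOX-PP replicate 1, which leaves slide 1 alone (difference 2.07, adjusted p = 0.0462), and without LOX-PP replicate 3 (2.45, adjusted p = 0.0298). It was lost without empty replicate 1, 2 or 3 (adjusted p = 0.114, 0.0567 and 0.0563) and without LOX-PP replicate 2 (adjusted p = 0.0611). Quantile normalization left the difference at 2.13 with an adjusted p of 0.0507, and testing all probes without the filter on dim ones gave 1.97 with an adjusted p of 0.0832. The methods' t-test, which does not share the spread between probes, gave an adjusted p of 0.102. In all 17 alternatives that tested it the difference stayed between 1.69 and 2.47 in the same direction, and 10 of the 17 called it. The 17 are not independent. Treating the slide as a block left the same arrays as leaving out LOX-PP replicate 1. The authors' log2 values nearly equal those used here, and EPAS1 has no second probe to average.

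The other HIF subunits and oxygen sensors did not pass. HIF1A, the gene of HIF-1 alpha, read 1.74, 1.80 and 1.57 on the empty arrays, against 1.84, 1.49 and 2.21 on the LOX-PP arrays. The groups overlapped, and the difference was 0.02 (SE 0.25, adjusted p = 0.781), with a sign that turned in 7 of 18 alternatives. ARNT, the partner of both alpha subunits, differed by -0.03 (SE 0.28). EGLN1, the main oxygen-sensing prolyl hydroxylase, differed by -0.0011 (SE 0.22), and under quantile normalization by 0.28. EGLN3, a second hydroxylase that is itself known as a HIF target, read -4.38, -4.47 and -4.15 on the empty arrays, against -4.76, -3.32 and -5.81 on the LOX-PP arrays. The LOX-PP arrays of EGLN3 lay on both sides of the empty ones, and 2 of 3 arrays in each group were well above background (difference -0.42, SE 0.58). VHL read 4.60, 4.61 and 4.41 on the empty arrays, against 5.95, 4.62 and 4.51 on the LOX-PP arrays. Its higher mean came from LOX-PP replicate 1, the array on slide 2, and its difference of 0.36 (SE 0.40) became -0.14 without that array.

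Among the 9 tested HIF targets outside glycolysis none passed the threshold, 8 lay below the median of all probes and the median difference was -0.09, or -0.03 with 5 of 9 below under quantile normalization. ADM encodes adrenomedullin, a peptide that widens blood vessels. Its probe, on a chromosome 11 gene, read 2.85, 3.31 and 1.82 on the empty arrays, against 1.02, 1.14 and 0.58 on the LOX-PP arrays. Every LOX-PP array lay below every empty array. The difference was -1.87 (SE 0.41), a 3.65-fold lower level, with an unadjusted p of 0.00368 and an adjusted p of 0.0574. ADM passed in 4 of 18 alternatives: normexp background correction (adjusted p = 0.0462), probes well above background on all arrays (0.0354), a variance trend with signal (0.0142), and without empty replicate 3 (0.0210), where its difference was -2.36.

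Other targets varied among the LOX-PP arrays. DDIT4, an inhibitor of mTOR signalling, read 2.33, 2.37 and 3.39 on the empty arrays, against 0.33, 1.56 and 2.54 on the LOX-PP arrays, with a difference of -1.35 (SE 0.58, adjusted p = 0.283). Its groups overlapped, since LOX-PP replicate 3 lay among the empty arrays. The difference of DDIT4 was -0.81 without LOX-PP replicate 1 and -1.88 without LOX-PP replicate 3, and neither passed. ANGPTL4, a secreted inhibitor of lipoprotein lipase, read 1.71, 2.22 and 1.66 on the empty arrays, against 3.93, 3.58 and 1.34 on the LOX-PP arrays. LOX-PP replicates 1 and 2 stood above all empty arrays and replicate 3 below them. The difference of ANGPTL4 was 0.96 (SE 0.66, adjusted p = 0.393), and without LOX-PP replicate 3 it was 1.76 with an adjusted p of 0.0353. Without LOX-PP replicate 1 it was 0.43 with an adjusted p of 0.591, and that call without replicate 3 was the only one in 18 alternatives. BNIP3L, a mitophagy receptor, differed by -0.87 (SE 0.39, adjusted p = 0.325) with LOX-PP replicate 3 again among the empty arrays, and ran from -1.22 to -0.50 when 1 array was left out.

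VEGFA, the main growth factor of blood vessels, read 1.99, 2.49 and 2.39 on the empty arrays, against 2.71, 1.85 and 1.75 on the LOX-PP arrays. These groups overlapped, and the difference was -0.31 (SE 0.32, adjusted p = 0.782). CA9, a carbonic anhydrase of the cell surface and a widely used hypoxia marker, read -5.45, -5.86 and -4.30 on the empty arrays, against -6.70, -3.34 and -5.08 on the LOX-PP arrays, and was well above background on 1 array of each group. It was not tested. CA12, a related carbonic anhydrase, read -4.85, -5.29 and -6.01 on the empty arrays, against -6.89, -5.70 and -6.40 on the LOX-PP arrays. It was well above background on 1 empty array and on no LOX-PP array, the groups overlapped, and neither a fold nor a test is given for it. The remaining 4 targets, ANKRD37, BNIP3, NDRG1 and KDM3A, differed by -0.09 to -0.01 with standard errors of 0.23 to 0.32. BNIP3, NDRG1 and KDM3A lay above 0 under quantile normalization.

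**Figure D2:**
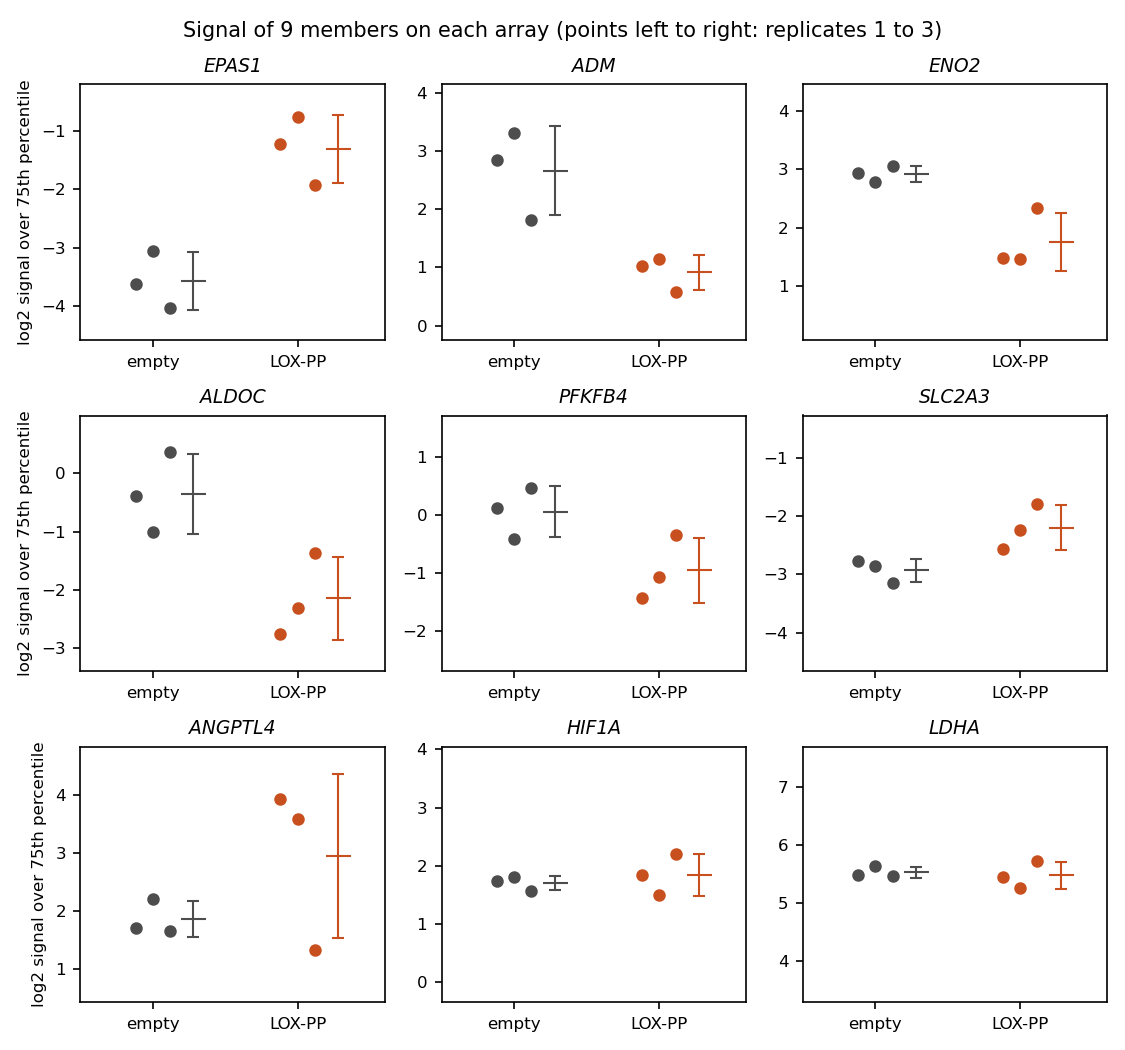
Log2 signal over the 75th percentile of each array for 9 genes, with 1 point for each array and a bar for the mean and SD of 3 arrays in each group; every panel spans the same range of log2 units. EPAS1, ADM, ENO2, ALDOC and SLC2A3 show groups that do not overlap, whereas LOX-PP replicate 3 departs from the other 2 for ANGPTL4.

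In the upper part of glycolysis, from hexokinase to aldolase, 6 of 7 tested genes lay below the median of all probes (5 of 7 under quantile normalization) and none passed. ALDOC, the aldolase best known from brain, is a gene on chromosome 17. It read -0.39, -1.01 and 0.36 on the empty arrays, against -2.77, -2.31 and -1.37 on the LOX-PP arrays. The groups did not overlap, with a gap of 0.36, and the difference of -1.93 (SE 0.47), a 3.81-fold lower level, had an unadjusted p of 0.00673 and an adjusted p of 0.0802. It passed in 1 of 18 alternatives, the variance trend with signal (adjusted p = 0.0308). HK2, the hexokinase most often raised in tumours, read 3.27, 3.27 and 3.05 on the empty arrays, against 3.09, 2.72 and 2.90 on the LOX-PP arrays. Its groups overlapped by 0.03 and the difference was -0.42 (SE 0.21, adjusted p = 0.477). The other hexokinase HK1, the isomerase GPI and the phosphofructokinases PFKM and PFKP differed by -0.33 to -0.11, and PFKL, the liver type phosphofructokinase, by 0.47 (SE 0.34). PFKM did not overlap between the groups, with a gap of 0.03 and an adjusted p of 0.598.

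In the lower part, from triose phosphates to pyruvate and lactate, none of the 9 genes passed, and ENO2 had the largest difference. ENO2 encodes the neuronal enolase, a marker of neural and neuroendocrine cells, on chromosome 12. It read 2.93, 2.79 and 3.06 on the empty arrays, against 1.47, 1.46 and 2.33 on the LOX-PP arrays. No LOX-PP array reached an empty array. The difference was -1.30 (SE 0.30), a 2.46-fold lower level, with an unadjusted p of 0.00549 and an adjusted p of 0.0717. It passed in 4 of 18 alternatives, among them leaving out LOX-PP replicate 3 (-1.59, adjusted p = 0.0371). ENO1, the enolase of most tissues, differed by 0.11 (SE 0.25), and by -0.19 under quantile normalization.

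GAPDH, often used as a reference gene, read 6.10, 6.28 and 6.37 on the empty arrays, against 7.28, 6.26 and 6.99 on the LOX-PP arrays. LOX-PP replicates 1 and 3 were above all empty arrays and replicate 2 lay among them, for a difference of 0.47 (SE 0.31, adjusted p = 0.315). LDHB, the lactate dehydrogenase subunit of heart, read 6.08, 6.37 and 6.33 against 7.12, 6.27 and 7.03, again with LOX-PP replicates 1 and 3 above all empty arrays and replicate 2 among them, and a difference of 0.42 (SE 0.29). Leaving out 1 array at a time gave 0.21 to 0.84 for GAPDH and 0.23 to 0.77 for LDHB. LDHA, the subunit that favours lactate and a textbook HIF target, read 5.48, 5.64 and 5.47 against 5.44, 5.26 and 5.73, with a difference of -0.18 (SE 0.22, adjusted p = 0.915). TPI1, PGK1, PGAM1 and PKM differed by -0.05 to 0.25. The median of the 9 genes of this stretch was 0.11 with 5 above, but under quantile normalization it was -0.19 with all 9 below, so no direction is given for them.

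Signal itself moved with the differences of these bright probes. Over all tested probes with a mean level of 6 to 7 the median difference was 0.50, and over those with a mean of 2 to 3 it was -0.25. The 10 glycolysis and hypoxia genes with a mean of at least 5 had a median difference of 0.05, against 0.22 for all 1254 probes that bright. Under quantile normalization these medians were -0.22 and 0.03. Sorted into bins of 1 log2 unit of mean signal, 6 of the 37 genes lay outside the range from the 5th to the 95th percentile of all probes of their bin. They were EPAS1 and ANGPTL4 above, and ADM, ALDOC, DDIT4 and ENO2 below. The part of signal in the other differences was not tested.

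**Figure D3:**
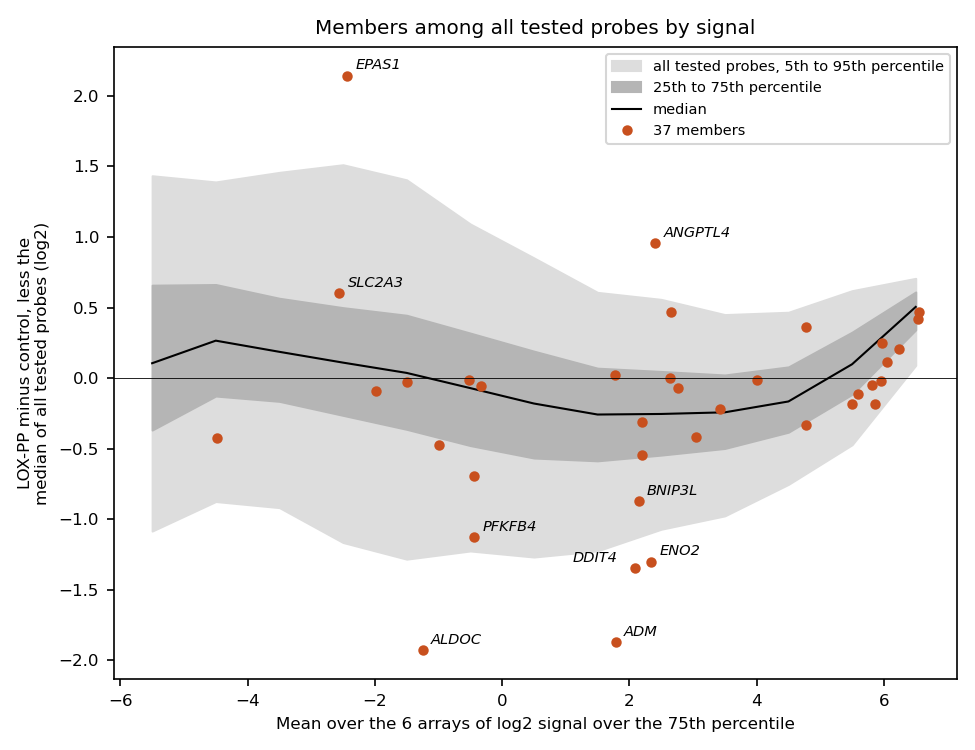
Difference (log2, less the median of all tested probes) against the mean log2 signal over the 6 arrays, for the 37 genes as points and for all 32647 tested probes as shaded percentile bands in bins of 1 log2 unit. EPAS1 and ANGPTL4 lie above the outer band and ADM, ALDOC, DDIT4 and ENO2 below it, while the median of all probes climbs to 0.50 at the bright end.

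Of the 3 transporters none passed. SLC2A1 is the glucose transporter of most cells and a HIF target. It read 2.71, 3.13 and 2.39 on the empty arrays, against 2.58, 3.09 and 2.73 on the LOX-PP arrays, with a difference of -0.07 (SE 0.28), or 0.20 under quantile normalization. SLC2A3, a glucose transporter of high affinity known from neurons, read -2.77, -2.86 and -3.15 on the empty arrays, against -2.57, -2.23 and -1.79 on the LOX-PP arrays. Its groups did not overlap (difference 0.60, SE 0.27, unadjusted p = 0.0302, adjusted p = 0.180). A second and dimmer SLC2A3 probe read -5.08, -5.49 and -6.03 against -3.50, -4.37 and -3.18 and passed with a difference of 1.72 (SE 0.39, adjusted p = 0.0429), although only 1 empty and 2 LOX-PP arrays were well above background for it. The size of that difference rests on dim values, and it was 0.99 with a common floor (adjusted p = 0.0985) and 0.95 with normexp (adjusted p = 0.0366). That call held in 4 of the 16 alternatives that tested it, and among those that left out 1 array it held without LOX-PP replicate 2 alone (adjusted p = 0.0366, against 0.0769 to 0.168). SLC16A3, the exporter of lactate in glycolytic cells, read -0.32, -0.25 and 0.11 on the empty arrays, against -0.37, -1.07 and -0.72 on the LOX-PP arrays. The groups of SLC16A3 were parted by 0.05, and the difference was -0.69 (SE 0.26, adjusted p = 0.271).

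PFKFB3, PFKFB4 and PDK1, which act on the flow through glycolysis and the entry of pyruvate into mitochondria, all lay below the median of all probes, also under quantile normalization, and none passed. PFKFB4 makes and breaks fructose-2,6-bisphosphate, the activator of phosphofructokinase. It read 0.13, -0.41 and 0.46 on the empty arrays, against -1.43, -1.07 and -0.33 on the LOX-PP arrays. The groups overlapped by 0.08, since LOX-PP replicate 3 was just above empty replicate 2, and the difference was -1.13 (SE 0.36, unadjusted p = 0.0288, adjusted p = 0.175). PFKFB3, a relative of the same function, differed by -0.55 (SE 0.39), and PDK1, a kinase that shuts pyruvate dehydrogenase, by -0.48 (SE 0.36). Leaving out 1 array at a time moved PFKFB3 between -0.81 and -0.14 and PDK1 between -0.80 and -0.19.

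Probes of one gene did not always give the same value. Of the 11 genes with a second probe, 10 had both probes tested, and the second probe of HK2 was too dim. The brighter and dimmer probes differed by -0.18 and -0.82 for LDHA, by 0.42 and 0.02 for LDHB, by -0.87 and 0.13 for BNIP3L, by -0.55 and 0.08 for PFKFB3, by -0.05 and -0.41 for PGAM1 and by 0.02 and -0.30 for HIF1A. The pairs of TPI1 (0.20 and 0.09) and VEGFA (-0.31 and -0.34) lay close together, and those of PFKP gave -0.11 and -0.38. Apart from SLC2A3, none of these second probes passed.

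Over the 37 genes together, LOX-PP replicate 2 had the lowest median. Each gene was taken relative to its own mean over the 6 arrays, less the median of all tested probes on the same array. The median of the 37 was then -0.33 on LOX-PP replicate 2 and between -0.03 and 0.18 on the other 5. For the 9 genes from triose phosphates to lactate it was -0.34 there, against 0.22 and 0.16 on LOX-PP replicates 1 and 3 and -0.13 to 0.05 on the empty arrays. This was shared by bright probes in general, and the 1254 tested probes with a mean of at least 5 had a median of -0.32 on LOX-PP replicate 2, 0.53 and 0.25 on LOX-PP replicates 1 and 3 and -0.20 to 0.0025 on the empty arrays. The 3 transporters went the other way on LOX-PP replicate 2 (0.22, against 0.098 and -0.11 on replicates 1 and 3). Without LOX-PP replicate 2 the median difference of the 37 genes was 0.01, and without empty replicate 2 it was 0.00. Negative control spots had a net signal of 575 on that LOX-PP array and of 64.4 to 408 on the others.

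**Figure D4:**
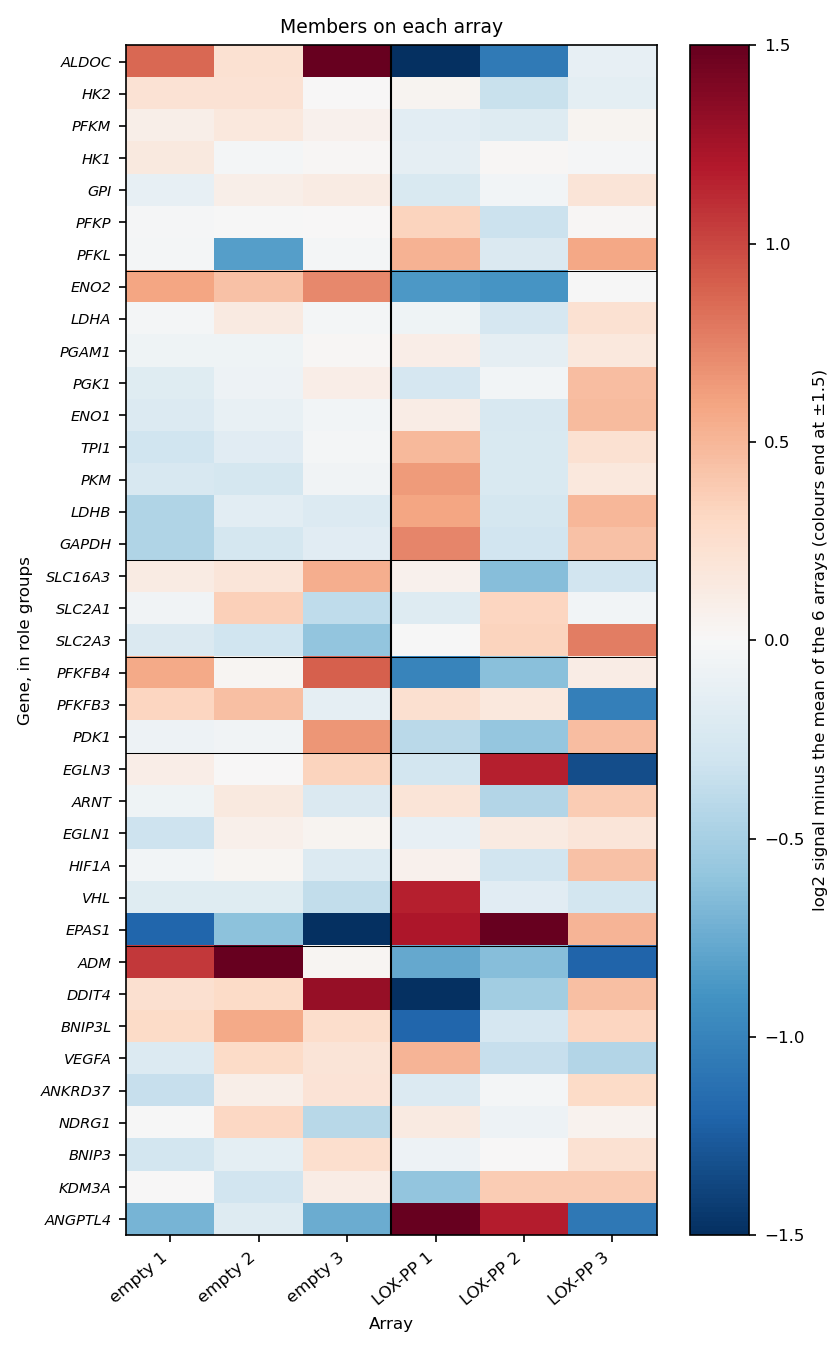
Log2 signal of the 37 tested genes on each of the 6 arrays, each gene less its own mean over the arrays, ordered by role group (lines) and by difference within a group; colours end at 1.5 log2 units on either side. LOX-PP replicate 2 is pale blue over most enzymes from triose phosphates to lactate, as are empty replicates 1 and 2. The colours have no array median subtracted. Less the median of all tested probes on each array, the median of these 9 genes was -0.34 on LOX-PP replicate 2. It was -0.13 and 0.05 on empty replicates 1 and 2. The 1254 tested probes with a mean of at least 5 had -0.32 on LOX-PP replicate 2. EPAS1, ADM, ALDOC and ENO2 divide the empty from the LOX-PP arrays.

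How many of the 37 genes passed depended on the setting. With a variance trend and a robust prior 4 of the 37 passed, EPAS1 higher and ADM, ALDOC and ENO2 lower. With normexp background correction 3 passed, EPAS1, ADM and ENO2, and with probes well above background on all arrays 2 passed, ADM and ENO2, since EPAS1 was then not tested. The share of all tested probes called under these settings is not given beside them. These counts are therefore not read as a result about the 37 genes. Quantile normalization, no filter and the methods' t-test left 0, with 6, 5 and 5 genes at an unadjusted p under 0.05. Over all 32647 tested probes, 6954 had an unadjusted p under 0.05 as reported and 6917 under quantile normalization. Over all 18 alternatives ADM ranged from -2.36 to -1.48, ALDOC from -2.32 to -1.64 and ENO2 from -1.59 to -1.03, all in the same direction.

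**Figure D5:**
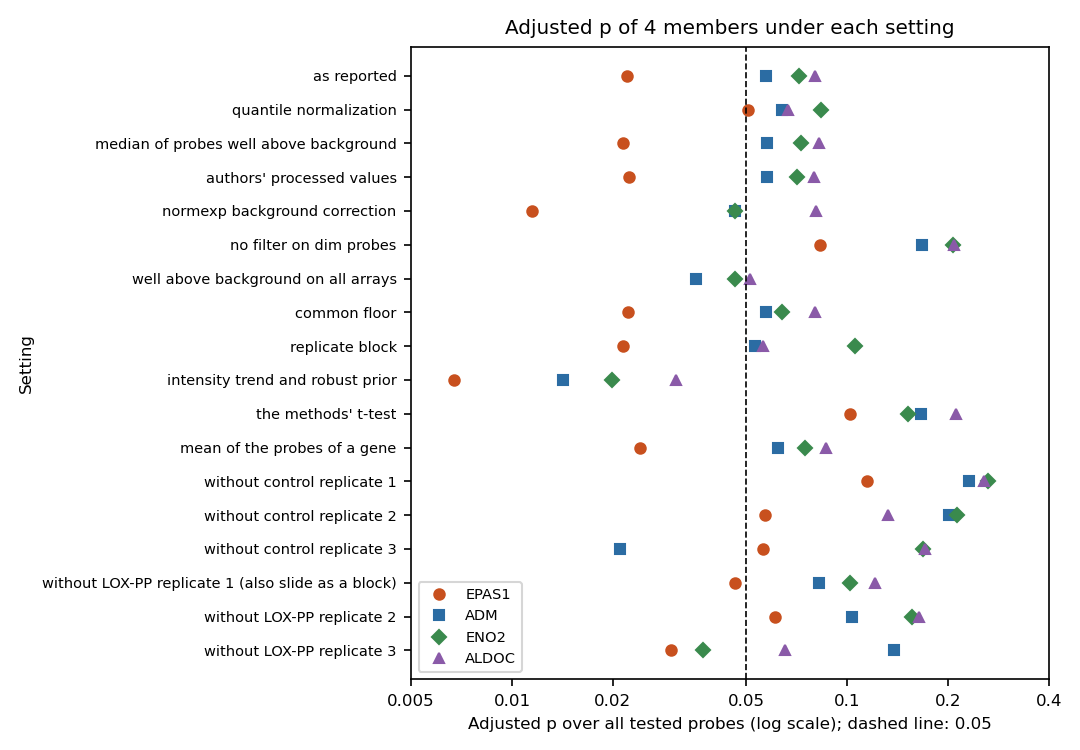
Adjusted p over all tested probes (log axis) of EPAS1, ADM, ENO2 and ALDOC for the values reported here and for each alternative setting, with a dashed line at 0.05. EPAS1 lies between 0.00672 and 0.114, and the 3 lower genes pass in 4, 4 and 1 of 18 alternatives.

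The same pathways hold further genes, which were listed by role, likewise with earlier results of these data known. Of 126 such genes 125 had a probe, 108 were tested and 4 passed, 2 upward and 2 downward, which is 3.70% against the 5.66% of all tested probes. Their median difference was -0.16. CXCR4, a chemokine receptor and HIF target, read 0.05, 0.11 and 0.73 on the empty arrays, against 2.56, 3.42 and 3.78 on the LOX-PP arrays. The groups lay far apart, with a difference of 2.83 (SE 0.37), 7.12-fold higher, and an adjusted p of 0.00763. Its call held in 15 of 18 alternatives and was lost without empty replicate 1 or 2 (adjusted p = 0.0543 and 0.0520) and with the methods' t-test (0.0675).

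SLC16A7, a monocarboxylate transporter, read -5.45, -5.89 and -4.80 against -3.92, -3.51 and -3.10 and rose by 1.75 (SE 0.35, adjusted p = 0.0310), with 1 empty and 2 LOX-PP arrays well above background. The size of this difference too rests on dim values. It was 1.17 with a common floor (adjusted p = 0.0312) and 0.83 with normexp, where the call was lost (adjusted p = 0.186). PLOD2, a collagen lysyl hydroxylase induced by HIF, read 2.48, 2.66 and 2.54 on the empty arrays against 1.11, 1.08 and 1.12 on the LOX-PP arrays. Its levels did not overlap, the difference was -1.59 (SE 0.19, adjusted p = 0.00928), and the call held in 14 of 18 alternatives. It was lost without empty replicate 1 or 2 (adjusted p = 0.0741 and 0.0680), with no filter on dim probes (0.0546) and with the replicate block (0.0515). MT1X, a metal-binding metallothionein, read 4.27, 4.60 and 3.75 against 2.61, 2.80 and 2.72, a difference of -1.62 (SE 0.27, adjusted p = 0.0265). The calls of SLC16A7 and MT1X held in 10 of 17 and 11 of 18 alternatives. Both were lost without empty replicate 1 or 2 and without LOX-PP replicate 2 or 3, where the adjusted p was 0.0834 to 0.150 for SLC16A7 and 0.0689 to 0.146 for MT1X. Both were also lost with no filter on dim probes (adjusted p = 0.109 and 0.102) and with the methods' t-test (0.114 and 0.0854), and MT1X with the replicate block (0.0659). Of the 36 other glycolysis and lactate genes 27 were tested and 1 passed. Of 20 other regulators of HIF, all tested, 0 passed in limma, with 5 at an unadjusted p under 0.05. Of 44 other HIF targets 40 were tested and 3 passed. In gluconeogenesis, the pentose phosphate pathway and glycogen metabolism 0 of the 3, 9 and 9 tested genes passed in limma, with 0, 1 and 2 at an unadjusted p under 0.05. Over all tested probes 6954 of 32647 had an unadjusted p under 0.05 in limma.

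The hypoxia response element core was searched in the RefSeq promoter windows of all genes, each 300 bases long, as ACGTG or GCGTG on both strands. ACGTG also lies inside the E-box CACGTG, so the searches overlap with that motif. CACGTG reads the same on both strands, so each such site was counted as a match on each strand. Matches of HK2, LDHA and ALDOC, among others, include such sites and exceed the number of distinct sites. Of 35116 windows 48.4% held at least 1 match, 21.4% ACGTG and 36.5% GCGTG. The glycolysis and hypoxia genes had 63 windows for 35 of the 40 genes, and 68.3% of these held a match. The genes were listed in part as known HIF targets, and windows of one gene can share a site, as in KDM3A and PFKM. The shares are therefore not read as a difference. The window of ADM held 1 GCGTG beginning 101 bases before the start, that of ENO2 held 1 ACGTG at 118 bases, that of PFKFB4 held 1 GCGTG at 166 bases and that of ALDOC held 5 matches. The core was also frequent in windows of genes with smaller differences. HK2 had 9 matches in 2 windows, LDHA had 7 in 2 windows and PGK1 had 4 in 1 window, whereas the windows of PGAM1, ARNT and EGLN3 had 0. No window was listed for SLC2A3, VHL, VEGFA, BNIP3L and NDRG1.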

How the data were processed

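RNA of 3 A673/TR/empty and 3 A673/TR/LOX-PP samples was measured on 1-colour Agilent arrays of 58717 gene spots for 50599 probes. The authors deposited the spot intensity from Agilent Feature Extraction 10.7 (per the labels), with a background-corrected signal, and a table of log2 values. Taking log2 of the corrected signal, subtracting an array's 75th percentile and centring each probe on its median gives their values to within 0.00587.

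Here, control spots and spots marked as outliers (213 to 353 per array) were removed. No gene spot was saturated, and 56.9% to 74.8% stood well above background. Of the 10 quality measures of Feature Extraction, 5 or 6 were out of range on each array of slide 1. On LOX-PP replicate 1, from slide 2, it was 1 of 10. Log2 values of a probe's spots were averaged and scaled to the 75th percentile in the same way. The 32647 probes that passed the background flag on 3 or more arrays entered limma 3.58.1 in R 4.3.3 (lmFit and eBayes, two-sided, no block) with Benjamini-Hochberg adjustment at 0.05. The number of arrays, 3 per group, limits the precision. Steps were tested on simulated data. A RefSeq table of another genome assembly than the array design named 28174 of the probes and gave no coordinates.

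Genes shown on every array were those past the threshold, those with an unadjusted p under 0.05 and groups that did not overlap, the largest difference of each role group, and 12 textbook genes of the pathway. DDIT4, ANGPTL4 and second probes were added after their values were seen. CA12, which was not tested, was shown as well, outside these rules. The genes and lists were chosen with earlier results of these data known. Alternatives were quantile normalization, the median of bright probes, the authors' log2 values, normexp (offset 50) on the median spot signal, since the files hold no mean signal, other filters, a common floor, slide and replicate blocks, a variance trend, the methods' t-test, the mean of a gene's probes, and leaving out each array.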

Additional observations from a re-analysis of the deposited data

How the results depend on the processing

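EPAS1, ADM, ENO2, ALDOC, PFKFB4 and SLC2A3 kept the direction of their difference in all alternatives that tested them, and 639 of the 751 differences of single genes recomputed under an alternative kept both direction and side of the threshold. The groups of EPAS1, ADM, ENO2, ALDOC and SLC2A3 did not overlap. Leaving out an array could therefore not turn their direction before the shift, and that part of the result was fixed in advance. Most of the 751 were of genes not called as reported. The reported calls held in 10 of 17 alternatives for EPAS1 and SLC16A7 and in 4 of 16 for the second SLC2A3 probe. For MT1X, PLOD2 and CXCR4 they held in 11, 14 and 15 of 18. The glycolysis and hypoxia genes past the threshold were 1 as reported, 0 under quantile normalization, with no filter on dim probes and with the methods' t-test, 2 with probes well above background on all arrays, 3 with normexp and 4 with a variance trend, and leaving out 1 array gave 0 to 3. All tested probes past the threshold were 1849 as reported, 1891 under quantile normalization, 516 with no filter, 860 with the replicate block, 566 with the methods' t-test and 407 to 2062 without 1 array. The number for the remaining settings is not given here. Counts of genes past the threshold under those settings are therefore not read as a result about the genes. The other pathway genes past the threshold were 4 as reported, 1 with no filter, 8 with probes well above background on all arrays, with a common floor and with the slide as a block, 10 with a variance trend, 2 with the methods' t-test and 0 to 8 without 1 array. The slide as a block leaves the same 5 arrays as leaving out LOX-PP replicate 1. The median difference of the glycolysis and hypoxia genes ranged from -0.25 to 0.01 over the alternatives.

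Deviations of same-numbered samples from their group means correlated at 0.27, -0.39 and 0.23, and those of the other pairs at -0.46 to 0.39. With 3 arrays per group these values cannot decide whether the numbers pair the samples. With the replicate block 1 glycolysis or hypoxia gene passed, again EPAS1 (adjusted p = 0.0215), and 3 other pathway genes. Sign turned in genes with differences of up to 0.47 in size. Under quantile normalization the differences became HK1 0.049, TPI1 -0.18, GAPDH -0.057, ENO1 -0.19, PKM -0.024, LDHB -0.082, SLC2A1 0.20, EGLN1 0.28, BNIP3 0.25, NDRG1 0.076 and KDM3A 0.074. With normexp HIF1A was at -0.058, with no filter ENO1 was at -0.065 and HIF1A at -0.15, and with the mean of a gene's probes HIF1A was at -0.14. With probes well above background on all arrays PGK1 was at 0.037, PGAM1 at 0.011, ARNT at 0.027, EGLN1 at 0.056, BNIP3 at 0.043, NDRG1 at 0.0024 and KDM3A at 0.046. With the slide as a block PGK1 was at 0.098, PKM at -0.0081, SLC2A1 at 0.0038, HIF1A at -0.012, EGLN1 at 0.058, VHL at -0.14, BNIP3 at 0.017 and KDM3A at 0.28.

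Leaving out 1 array at a time gave ranges of -0.17 to 0.28 for KDM3A, -0.22 to 0.11 for PGK1, -0.11 to 0.12 for PGAM1, -0.32 to 0.19 for SLC2A1, -0.20 to 0.29 for ARNT, -0.11 to 0.13 for EGLN1, -0.24 to 0.025 for ANKRD37, -0.11 to 0.086 for BNIP3, -0.31 to 0.18 for NDRG1, -0.16 to 0.28 for HIF1A, -0.0081 to 0.54 for PKM, -0.14 to 0.64 for VHL, -0.31 to 0.13 for PFKP, -0.31 to 0.0054 for LDHA, -0.071 to 0.37 for ENO1 and -0.998 to 0.17 for EGLN3. The causes were not tested. Signal over background limits EGLN3, CA9, CA12, SLC16A7, the second SLC2A3 probe and EPAS1 on the empty arrays, where some or most arrays were not well above background.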
